A study of Mus musculus with 10 samples.

Results

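Histone genes were compared between leukemic mouse spleens labelled Sirt1-deleted and control spleens. Of the 20813 genes in the deposited expression table, 80 had a symbol of the core or linker histone genes. They comprised 67 replication-dependent genes of the 4 histone gene clusters (symbols that begin with Hist1h, Hist2h, Hist3h or Hist4h) and 13 replacement variant genes (symbols that begin with H1f0, H1fx, H2af or H3f3). Membership was decided by symbol alone.

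The samples came from mice that carried a transplanted T-cell acute lymphoblastic leukemia, an aggressive cancer of immature T cells. All leukemias were described as Sirt1 conditional knockout cells on the C57BL/6 background, given intravenously to recipients that had received sub-lethal irradiation. Recipients in the Sirt1-deleted group (n = 5) received tamoxifen, 3 mg per mouse in corn oil, into the peritoneal cavity, and recipients in the control group (n = 5) received corn oil only, so the genotype and the drug cannot be told apart. RNA was taken from whole leukemic spleens after red cell lysis and sequenced as strand-specific Illumina libraries, and the comparison asks what the loss of Sirt1, a NAD-dependent protein deacetylase, changes in this leukemia. Both groups carried the conditional allele. The Cre driver, the ages of the mice, the number of primary leukemias and the selection of poly(A) or ribosome-depleted RNA are not given in the sources used here. Nothing says whether the leukemias of a group descend from 1 primary tumour, so the p-values measure only the spread between these samples. Replicates are numbered as in the sample titles: 7, 8, 10, 11 and 12 in the Sirt1-deleted group and 2 to 6 in controls.

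Replication-dependent histone genes supply the bulk of chromatin protein when DNA is copied. Most lie in clusters, they typically lack introns, are transcribed mainly in S phase under the coactivator NPAT, and their mRNAs end in a stem-loop bound by the protein SLBP instead of a poly(A) tail. Replacement variant genes mostly lie outside the clusters, are typically polyadenylated, and supply histones through the whole cell cycle and in resting cells: H1.0 (H1f0) accumulates in cells that stop dividing, H2A.Z (H2afz and H2afv) marks promoters, H2A.X (H2afx) is phosphorylated at DNA breaks, macroH2A (H2afy) is found in silent chromatin, and H3.3 (H3f3a and H3f3b) is loaded outside replication.

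The stem-loop was read from the transcripts of the GENCODE M21 annotation (GRCm38, the build also called mm10), because it is the feature that divides the classes and because the annotated end of a gene decides which reads can be assigned to it. Of the 67 replication-dependent genes, 45 had a match to the 16-base histone stem-loop consensus in an annotated transcript. Among the replacement genes only H2afx had one, followed by a further 822 annotated bases. Over the annotation, 53 of 21877 protein-coding genes (0.242%) held the motif on the transcript strand, 47 of them with symbols that match the rule, and 1 gene (0.00457%) held its reverse complement. The matches below are shown 5′ to 3′ as DNA letters, 30 bases each, with the 16-base stem-loop in capitals, for the gene with a match that had the highest mean in each cluster family, for Hist1h2bf and Hist1h4d, called genes whose groups did not overlap, and for H2afx.
Hist1h1c: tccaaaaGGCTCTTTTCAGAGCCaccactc
Hist1h2ap: aaaaaaaaaaaGGCTCTTTTCAGAGCCatc
Hist1h2bj: atccaaaGGCTCTTTTCAGAGCCacgcaca
Hist1h2bf: acccaaaGGCTCTTTTCAGAGCCacctacc
Hist1h3c: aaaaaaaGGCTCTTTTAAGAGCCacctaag
Hist1h4i: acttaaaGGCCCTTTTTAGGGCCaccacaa
Hist1h4d: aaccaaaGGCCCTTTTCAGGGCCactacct
H2afx: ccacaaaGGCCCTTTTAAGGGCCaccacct
The commonest form, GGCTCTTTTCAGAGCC, was found in 26 genes, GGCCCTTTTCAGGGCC in 7 and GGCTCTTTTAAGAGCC in 5. The remaining 6 forms were found in 1 or 2 genes each. A match describes these letters only, and the absence of one says only that they are not in the annotated transcripts.

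The deposited values are gene counts after DESeq scaling between samples and are called normalised counts here. The total of a sample lay at 33.7 M to 34.5 M (M, mega), and the number of raw reads is unknown. Differences are given as log2(normalised count + 1), labelled Sirt1-deleted minus control, from limma fitted to the 15276 genes with a mean of at least 10, and a gene is called when its Benjamini-Hochberg adjusted p over those genes is under 0.05. This scale understates the change of low genes. By this rule 36.1% of all tested genes were called, 16.8% higher and 19.4% lower in the labelled Sirt1-deleted samples. Sirt1 itself was at 1873 ± 146 (SD, n = 5) against 1810 ± 62.5 (SD, n = 5), a log2 difference of 0.05 (SE 0.06, 95% interval -0.08 to 0.17, limma adjusted p = 0.568). The labels do not say which exons are deleted, so this gene-level value cannot check the deletion, and samples of that group are written of by their label.

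The labelled tissue was checked against marker lists. The summed T lineage markers, all of them detected, were at 161337 to 179233 in controls and 180719 to 214282 in the labelled Sirt1-deleted samples, with 2 of 16 called higher and 4 called lower. Their median log2 difference was -0.09 and 10 of 16 lay below 0. The sums overlapped without Thy1, a T cell surface marker (79592 ± 17084 against 53217 ± 3677). Summed neutrophil markers were at 9166 to 12658 in controls and 28975 to 99982 in the labelled Sirt1-deleted samples, and 13 of 14 were called higher. Macrophage and monocyte markers summed to 3461 to 3938 and to 7019 to 13293, with 10 of 14 called higher. B cell and erythroid lists had 0 called of 9 and 0 of 11. Of 10 listed stromal and endothelial genes, 9 had deposited values and 7 were tested, and 2 of these 7 were called lower. None of the listed genes with deposited values was at 0 in every sample. The host cells' part in the histone results was not tested. In whole spleen, fewer cells of a type and less RNA per cell cannot be told apart.

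The replication-dependent and replacement genes differed in how many of their members were called, and also in expression level. Over all tested genes 36.1% were called. Of the 67 replication-dependent genes, 63 passed the filter and 7 of them (11.1%) were called, all higher in the labelled Sirt1-deleted samples and none lower. At an unadjusted p under 0.05 in limma the count was 12, all higher. The share of all tested genes at that unadjusted threshold was not computed, so this count has no background beside it. Among all tested genes with a mean under 100, 746 were called higher and 134 lower by adjusted p. The shared direction is therefore not read as a trait of histone genes. Of the 13 replacement genes, 9 passed and 4 (44.4%) were called, H2afj and H2afv higher and H1f0 and H3f3a lower. That share is close to the 43.1% of all tested genes with a mean of at least 100. The median log2 difference was 0.08 over the tested replication-dependent genes (range -0.51 to 1.17), 0.05 over the tested replacement genes (range -0.44 to 0.29) and -0.00 over all tested genes, and quantile normalization turned the first of these to -0.11. The plot of log2 differences by family shows the wide scatter of the cluster genes and the narrow intervals of the variants.

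**Figure D1:**
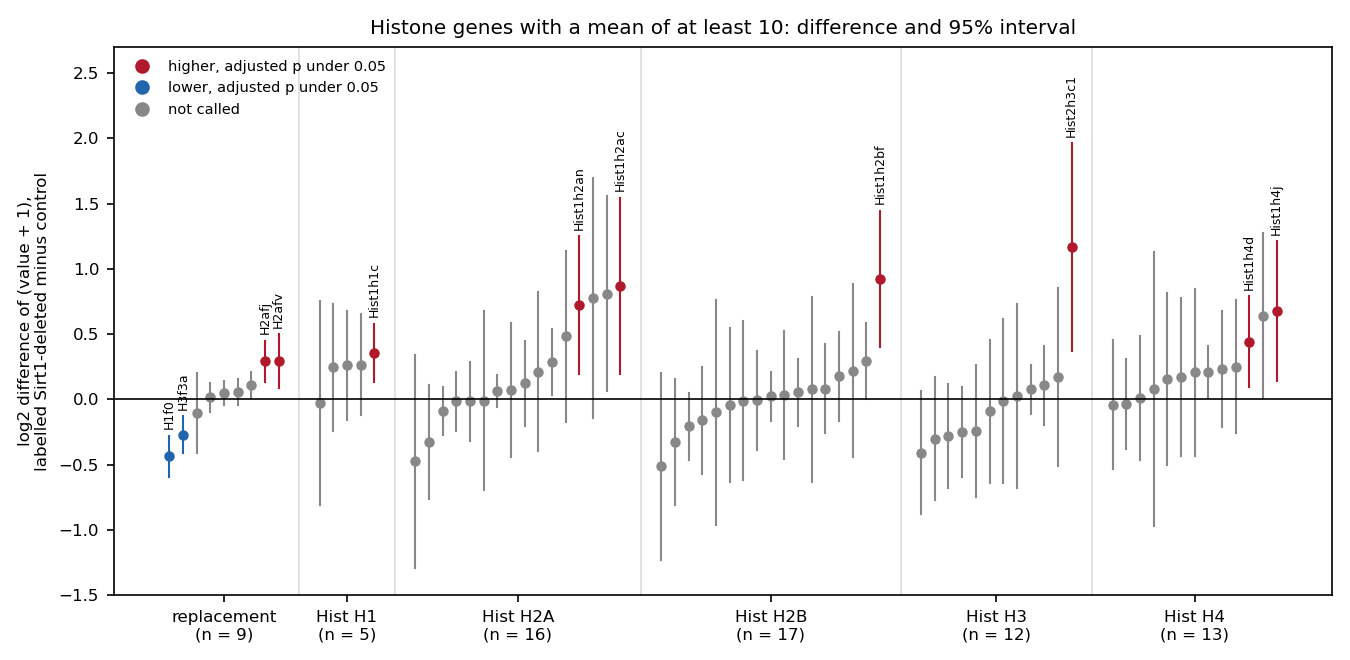
Log2 difference of each tested histone gene (labelled Sirt1-deleted minus control, log2(normalised count + 1)), grouped by family, with 95% intervals and with called genes coloured by direction. The 7 called cluster genes all lie above 0, and the 4 called replacement genes lie on both sides of it.

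These shares depend on expression level. Only 17 of the tested replication-dependent genes had a mean of at least 100, and 46 were below it, whereas all 9 tested replacement genes were above it. Among all tested genes with a mean under 100, 19.5% were called, 16.5% higher and 2.96% lower, and their median log2 difference was 0.25. Of the 46 replication-dependent genes in that range 6 were called. Among all tested genes with a mean of at least 100, 43.1% were called, 16.9% higher and 26.2% lower, with a median of -0.05. In that range 1 of 17 replication-dependent genes and 4 of 9 replacement genes were called. The median standard error was 0.23 for the replication-dependent genes, 0.07 for the replacement genes and 0.10 for all tested genes. Groups whose values did not overlap at all were found for 24.0% of all tested genes, for 4 of the 63 replication-dependent genes and for 2 of the 9 replacement genes.

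The linker histone H1.0 gene and an H3.3 gene fell. H1f0 (ENSMUSG00000096210, chr15:79028450-79030504, plus strand) encodes a linker histone that binds the DNA between nucleosomes. Its normalised counts were 5827, 5812, 6766, 5554 and 5630.5 in labelled Sirt1-deleted replicates 7, 8, 10, 11 and 12, and 9188, 7605, 8468, 7217 and 7659 in control replicates 2 to 6. Replicate 10 was the highest of its group, and it still lay below the lowest control. The means were 5918 ± 488 and 8028 ± 793 (SD, n = 5 each), a log2 difference of -0.44 (SE 0.07, limma adjusted p = 0.0013). H1f0 was called in all 10 alternative analyses and in all 10 fits that left out 1 sample. The annotated gene Gm49544 overlaps it and shares 133 of its 2025 runs of 31 bases. The other linker variant gene in the class, H1fx, encodes H1.X and was low, at 100.9 to 141 and 108 to 148, with a log2 difference of -0.11 (SE 0.14, limma adjusted p = 0.586).

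H3.3 is made from 2 genes that encode the same protein. H3f3a (ENSMUSG00000060743, chr1:180800832-180813943, minus strand) was at 21187, 22939, 22500.0, 23745 and 18104 in the labelled Sirt1-deleted samples and at 25491, 25667, 26035, 26519 and 26759 in controls. All 5 labelled Sirt1-deleted values lay below the lowest control, and replicate 12 was the lowest. The log2 difference was -0.27 (SE 0.07, limma adjusted p = 0.0074), and it was called in all 10 alternative analyses and all 10 fits that left out 1 sample. The annotated gene Gm17275 overlaps H3f3a and shares 614 of its 3584 runs of 31 bases. An antisense gene, H3f3aos, also overlaps H3f3a. The strand setting used for counting is not given in the sources used here, so reads of H3f3a and H3f3aos may not have been told apart.

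H3f3b (ENSMUSG00000016559, chr11:116021912-116027962, minus strand) did not pass the test. It was at 26597, 27314, 29215, 29542 and 28526 in the labelled Sirt1-deleted samples and at 26804, 27177, 27253, 27393 and 28026 in controls, a log2 difference of 0.05 (SE 0.04, 95% interval -0.04 to 0.14, limma adjusted p = 0.409). The groups overlapped, and 3 of the labelled Sirt1-deleted values exceeded the highest control. Upper-quartile rescaling of the samples brought the gene past the threshold at 0.13, and quantile normalization gave -0.03. The ratio of H3f3a to H3f3b within a sample does not depend on a scaling factor for the sample. It was 0.769 ± 0.0791 in the labelled Sirt1-deleted samples (range 0.635 to 0.840) and 0.955 ± 0.00864 in controls (range 0.944 to 0.968; SD, n = 5 each), so the ranges were separate and the control values lay close together. The summed normalised counts of both genes were 46629.6 to 53287 and 52295 to 54785, with 4 of 5 labelled Sirt1-deleted samples below the lowest control.

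Both genes of the H2A group that rose had overlapping groups. H2afj (ENSMUSG00000060032, chr6:136808244-136810074, plus strand) encodes the variant H2A.J. It was at 4582, 4532, 3790.3, 4160.3 and 4670.2 against 3617, 3447, 4038, 3203 and 3451. Replicate 10 fell within the control range and the other 4 lay above the highest control. The means were 4347 ± 367 and 3551 ± 309.8 (SD, n = 5 each), a log2 difference of 0.29 (SE 0.07, limma adjusted p = 0.0085), and the call was lost under the exact rank-sum test (adjusted p = 0.0512).

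H2afv and H2afz encode the H2A.Z proteins. H2afv (ENSMUSG00000041126, chr11:6427229-6444443, minus strand) was at 4784, 4624, 3741, 3859.7 and 5318 in the labelled Sirt1-deleted samples and at 3133, 3747, 3887, 3555 and 3801 in controls. Replicates 10 and 11 lay inside the control range and replicates 7, 8 and 12 above it. The log2 difference was 0.29 (SE 0.10, limma adjusted p = 0.0301). The call was lost in the rank-sum test, in limma without the intensity trend, and in 5 of the 10 fits with 1 sample left out, those without labelled Sirt1-deleted replicate 7, 8 or 12 or control replicate 2 or 5, where the adjusted p was at most 0.0791 and the log2 difference at least 0.23. Replicates 10 and 11 also had the lowest summed neutrophil markers of their group, 28975 and 39752. The order did not hold at the other end. Replicate 8 had the highest sum, 99982, whereas replicate 12, at 44848.5, was highest for both H2afj and H2afv. Whether neutrophil RNA contributes to the H2afj and H2afv values was not tested.

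H2afz (ENSMUSG00000037894, chr3:137864487-137866922, plus strand) was the replacement gene with the highest mean. It was at 40303, 42412, 43321, 43429 and 42337 against 35831, 39209, 40252, 40038 and 40687. Replicate 7 lay within the control range and the other 4 above it. The log2 difference of 0.11 (SE 0.05, 95% interval 0.01 to 0.21) missed the threshold (limma adjusted p = 0.0739), was called at 0.19 after upper-quartile rescaling and was 0.01 after quantile normalization. Summed with H2afv, the H2A.Z genes were at 45087 to 47655 and 38965 to 44488, without overlap, a ratio of means of 1.09. This sum was not tested and is mostly H2afz, with means of 42360 and 39204 within sums of 46826 and 42828. H2afz shares 639 of its 1909 runs of 31 bases with Tmcc1. Summed with Tmcc1 and the other genes that share its runs, 4 in all, H2afz differed by 0.09 with overlapping groups.

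The other variants did not pass the test. H2afx (ENSMUSG00000049932, chr9:44334694-44336077, plus strand) was at 11008 ± 554 against 10881 ± 619 (SD, n = 5 each), a log2 difference of 0.02 with a 95% interval of -0.09 to 0.13 (limma adjusted p = 0.822). H2afy, which encodes macroH2A1, was at 15118, 15294, 13446, 13518 and 13740.1 in the labelled Sirt1-deleted samples and between 13578 and 13759 in controls. Replicates 7 and 8 stood above all controls, and the log2 difference was 0.06 (SE 0.05, limma adjusted p = 0.374), called at 0.14 only after upper-quartile rescaling. Of the 4 replacement members that were not tested, H2afy2, the macroH2A2 gene, had a mean of 4.45, and H2afy3, H3f3a-ps1 and H3f3a-ps2 are annotated pseudogenes with means of 5.22, 4.61 and 2.65.

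**Figure D2:**
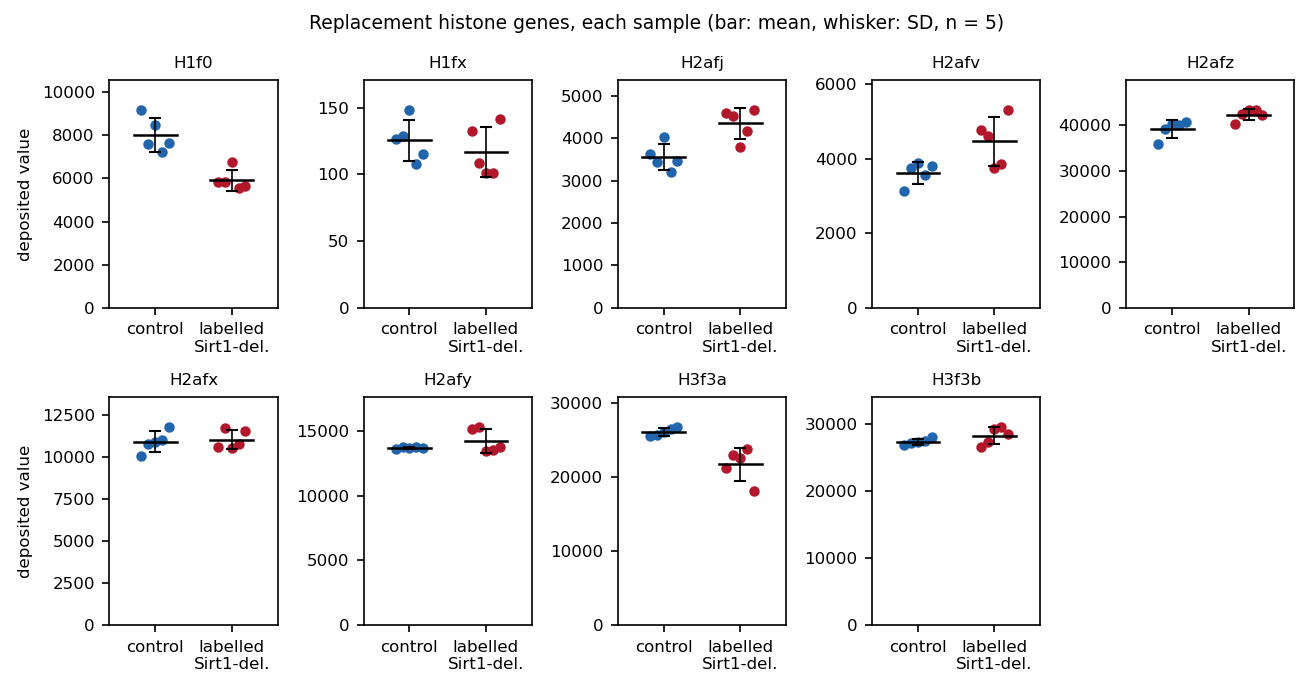
Normalised counts of the 9 tested replacement histone genes in each of the 10 samples, by group (points are samples, bars are means, whiskers are SD, n = 5). H1f0 and H3f3a show separate groups, whereas H2afj and H2afv are higher on average with overlapping values.

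The replication-dependent genes were dominated by 1 gene. Hist1h2ap (ENSMUSG00000094777, chr13:21833026-21833507, minus strand), an H2A gene, held between 81.9% and 85.7% of the summed normalised counts of the cluster genes in each sample. It was at 33248, 36591, 35926, 35133 and 31374 in the labelled Sirt1-deleted samples and at 30731, 32993, 35715, 34009.8 and 31376 in controls. The groups overlapped across nearly their full range, and the log2 difference was 0.06 (SE 0.06, 95% interval -0.06 to 0.19, limma adjusted p = 0.399), -0.02 after quantile normalization. Per kilobase of its longest annotated transcript its mean level was 69937 normalised counts, above H2afz at 38150, H3f3b at 11052, H3f3a at 8411 and H2afx at 7908. The next cluster genes on that scale were Hist1h4i at 1119 and Hist1h2ag at 1086.

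That level belongs to a sequence that several genes share. A quantifier that matches short runs of bases cannot place a read on 1 gene if all the runs of the read are shared with the same other gene. The share of runs found in no other gene is a minimum for the sequence that can be placed, since runs shared with different genes can together point to 1 gene. Of the 31-base runs of Hist1h2ap, 6.64% were found in no other gene's transcripts, and 422 of its 452 runs were shared with Hist1h2ao. The coding sequences of Hist1h2ap and Hist1h2ao, 390 bases each, had 0 mismatches, yet Hist1h2ao had a mean of 41.9 normalised counts. How the reads were divided between identical copies is decided by the authors' quantification, so the values of single members of such a group are uncertain. Both genes also hold an A run of 12 bases that ends at the stem-loop, shown here with the stem-loop in capitals because no other histone gene has so long a run at that place.
Hist1h2ap: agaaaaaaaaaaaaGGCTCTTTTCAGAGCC
Hist1h2ao: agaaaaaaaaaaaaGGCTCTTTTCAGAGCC
Elsewhere in a transcript, A runs of 15 bases in Hist1h2ac, 12 in H3f3b and 11 in Hist1h2be were the only others above 10.

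Over the replication-dependent genes the median share of 31-base runs with no copy in another gene was 37.0%, and over the replacement genes it was 84.6%. Of the 43 replication-dependent genes with less than 50% of such sequence, 40 were tested and 3 called. Of the 24 with at least 50%, 23 were tested and 4 called. These are 7.5% and 17.4%, beside 36.1% of all tested genes and 19.5% of those with a mean under 100. The plot of level against own sequence places Hist1h2ap far from every other cluster gene.

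**Figure D3:**
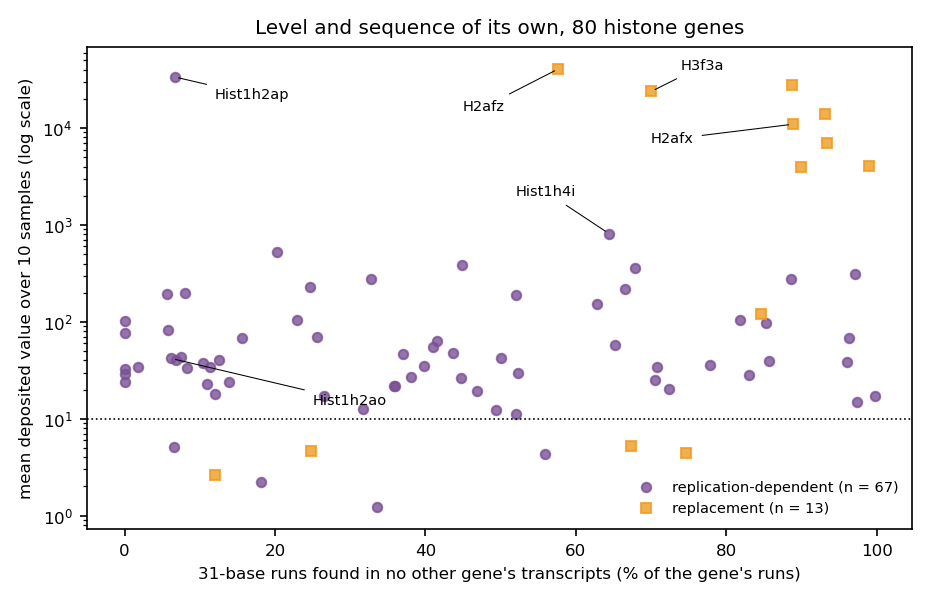
Mean normalised count over 10 samples (log scale) against the percent of a gene's 31-base runs that occur in no other gene's transcripts, for all 80 histone genes. Hist1h2ap combines the second highest mean with 6.64% own sequence, and the dotted line is the minimum mean of 10 for testing.

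Summing each family in a sample removes the division of reads within that family. The summed H1 genes were at 489, 465, 507, 516 and 571 in the labelled Sirt1-deleted samples and at 389, 384, 454, 376 and 459 in controls. The groups did not overlap, although the lowest labelled Sirt1-deleted sum and the highest control sum were close, and the log2 difference was 0.31. The summed H4 genes were at 1338, 1218, 1320.1, 1581 and 1554 against 1166, 1201, 1190.0, 1199 and 1245. Replicate 8 fell within the control range, the other 4 lay above it, and the log2 difference was 0.22. Without their most abundant genes, Hist1h1c and Hist1h4i, the H1 and H4 sums differed by 0.23 and 0.22, and both had overlapping groups, so the separation of the H1 sums rests on Hist1h1c. Sums are described without a test.

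The 3 remaining families showed overlapping sums. For H2A, including Hist1h2ap, the log2 difference was 0.07, and without Hist1h2ap it was 0.10. For H2B it was 0.07 and for H3 -0.02. Quantile normalization gave -0.02 for H2A and -0.04 for H2B, and upper-quartile rescaling gave 0.06 for H3, so none of these 3 kept its direction under both scalings, whereas H1 (0.18 and 0.39) and H4 (0.16 and 0.30) did. All 67 cluster genes together were at 40879 ± 1892 and 38896 ± 2190.5 (SD, n = 5 each), a log2 difference of 0.07, and without Hist1h2ap it was 0.11. All 13 replacement genes together were at 132393 ± 2661 and 132519 ± 3139.8, a log2 difference of -0.00.

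**Figure D4:**
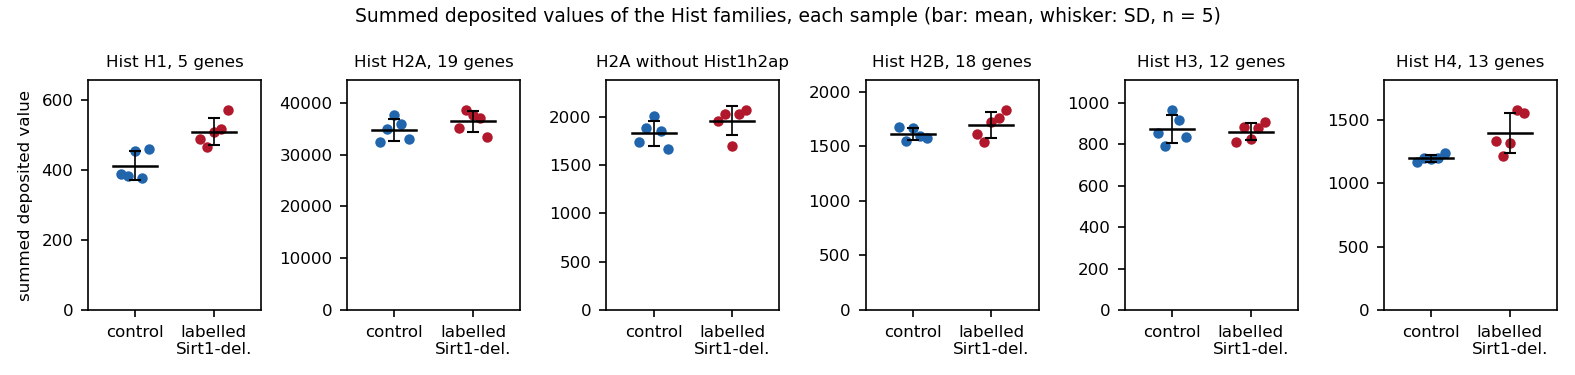
Summed normalised counts of the replication-dependent H1, H2A, H2B, H3 and H4 genes, and of H2A without Hist1h2ap, in each sample, by group (points are samples, bars are means, whiskers are SD, n = 5). The H1 sums are separate between the groups, H4 sums are higher in 4 of 5 labelled Sirt1-deleted samples, and the H2A, H2B and H3 sums overlap.

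Within the H1 family, Hist1h1c (ENSMUSG00000036181, chr13:23738808-23740367, plus strand), which encodes the linker histone H1.2, was the only cluster gene with a mean of at least 100 that was called. It was at 311, 302, 338, 299 and 311 in the labelled Sirt1-deleted samples and at 248, 207, 294, 219.5 and 259.6 in controls. All labelled Sirt1-deleted values lay above the highest control, and the values of that group lay closer together. The means were 312 ± 15.5 and 246 ± 34.6 (SD, n = 5 each), a log2 difference of 0.35 (SE 0.10, limma adjusted p = 0.0191), and it was called at the 0.05 threshold in all 10 alternative analyses and all 10 fits with 1 sample left out, but not at an adjusted p under 0.01. Of its 31-base runs 88.6% were its own. Among the 4 other H1 genes, all under a mean of 100, Hist1h1d, Hist1h1e and Hist1h1b had log2 differences of 0.26, 0.27 and 0.24 and Hist1h1a -0.03, with limma adjusted p-values between 0.264 and 0.965. Hist1h1c and H1f0, both linker histone genes, thus differed between the groups in opposite directions.

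The most abundant genes of the other cluster families did not pass the test. Hist2h2be, an H2B gene in the Hist2 cluster (chr3:96221119-96223738, plus strand), was at 312 ± 25 against 307 ± 19.1, a log2 difference of 0.02 (limma adjusted p = 0.869). Hist1h3c, an H3 gene (chr13:23744973-23745602, minus strand), was at 395 ± 22.1 against 376 ± 38.5, a log2 difference of 0.08 (limma adjusted p = 0.525). Hist1h4i, an H4 gene (chr13:22040636-22041362, minus strand), was at 806, 715, 852, 1038 and 971 against 703, 753, 766, 766 and 769. Replicate 8 lay within the control range and the other 4 labelled Sirt1-deleted values above it. The log2 difference was 0.21 (SE 0.09, limma adjusted p = 0.0935), and the gene was called after upper-quartile rescaling and in the fit without labelled Sirt1-deleted replicate 8.

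The 6 other called cluster genes were low, with means under 100, and are named here after their values were seen. Hist1h2bf (H2B, chr13:23573736-23574196, minus strand) was at 22.1, 26.4, 22.5, 18.7 and 24.6 against 14.6, 14.5, 9.94, 9.90 and 9.57. The groups did not overlap, the log2 difference was 0.92 (SE 0.24, limma adjusted p = 0.0110), and it was called in all 10 fits with 1 sample left out and lost under quantile normalization (adjusted p = 0.0545). Hist1h4d (H4, chr13:23581598-23582735, plus strand) was at 105, 117, 92.3, 91.4 and 159 against 84.9, 84.7, 81.8, 79.1 and 75.3. These groups did not overlap either, with replicate 12 the highest, but the log2 difference of 0.44 (limma adjusted p = 0.0468) kept its call in 2 of the 10 fits with 1 sample left out. Hist1h2an (H2A, chr13:21786826-21787218, minus strand) was at 23.6 to 39.2 against 11.7 to 19.99, without overlap, with a log2 difference of 0.72 (limma adjusted p = 0.0343) and a call in 5 of those 10 fits.

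The 3 remaining called genes had overlapping groups. Hist2h3c1 (H3, chr3:96246685-96248509, plus strand) was at 45.6, 42.4, 20.4, 38.3 and 51.4 against 10.6, 40.3, 14.2, 10.97 and 17.0. Control replicate 3 reached the level of the labelled Sirt1-deleted samples, and the log2 difference was 1.17 (SE 0.37, limma adjusted p = 0.0257), called in 4 of 10 fits with 1 sample left out. All 1795 of its 31-base runs are also in the overlapping gene Gm20634, counted on either strand. By these runs, apart from their strand, no read from its annotated transcripts can be told from that gene. Gm20634 has no values among the deposited genes, and whether the authors' quantification included it is unknown. Hist1h2ac (H2A) was at 32.5 to 48.5 against 8.47 to 33.6, a log2 difference of 0.87 (limma adjusted p = 0.0457), and Hist1h4j (H4) at 21.9 to 37.1 against 14.9 to 25.3, a log2 difference of 0.67 (limma adjusted p = 0.0498). They were called in 1 and 3 of the 10 fits with 1 sample left out.

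**Figure D5:**
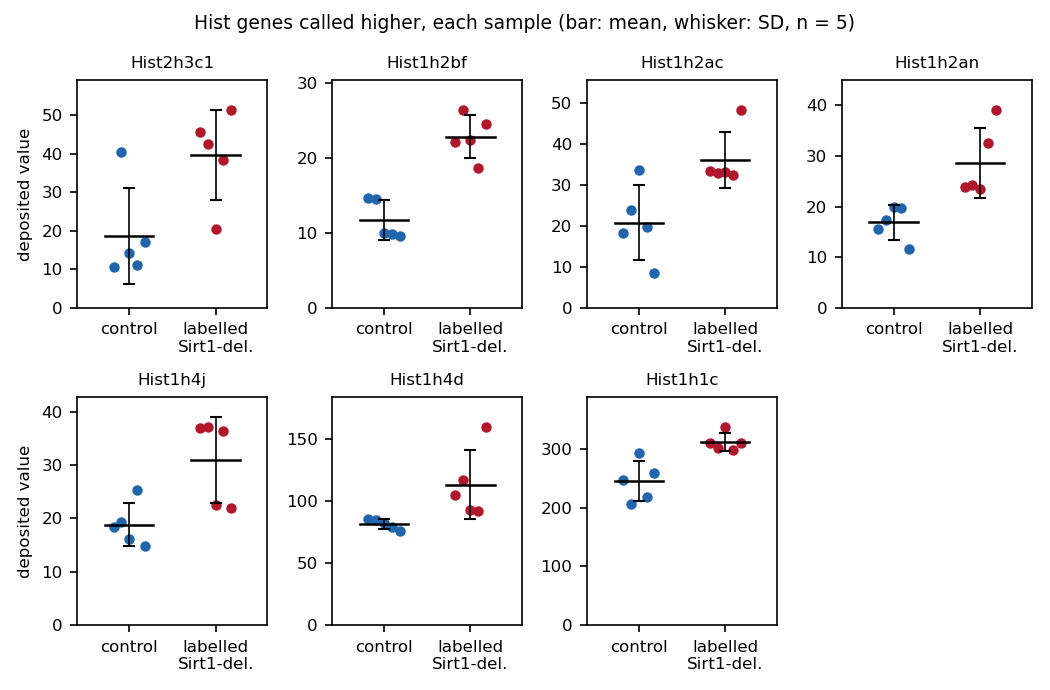
Normalised counts of the 7 called replication-dependent genes in each sample, by group (points are samples, bars are means, whiskers are SD, n = 5). The groups are separate for Hist1h1c, Hist1h2bf, Hist1h2an and Hist1h4d and overlap for Hist2h3c1, Hist1h2ac and Hist1h4j.

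Each called cluster gene was also summed with the genes of the table that share at least 100 of its 31-base runs. Hist1h1c with Hist1h1d and Hist1h1e differed by 0.32 on the log2 scale, again without overlap. Hist1h4d with 3 such genes differed by 0.22 and Hist1h4j with 9 by 0.19, both with overlapping groups and both including Hist1h4i. The sums for Hist1h2bf (0.12), Hist1h2ac (0.05) and Hist1h2an (0.05) differed less than the single genes, and that for Hist2h3c1 differed by -0.12. For the 2 H2A genes the sum consists mostly of Hist1h2ap and H2afx. In labelled Sirt1-deleted and control samples, Hist1h2bf had means of 22.8 and 11.7 within sums of 1211 and 1117. Hist2h3c1 had 39.6 and 18.6 within sums of 319 and 347. Sums set mostly by other genes cannot show whether a single-gene difference holds. Hist2h3c1 with only Hist2h3b and Hist2h3c2 differed by 0.06, with overlapping groups. H3f3a was summed with 9 of the 20 genes that share its runs, those with deposited values, and the sum differed by -0.27 without overlap. H3f3a had means of 21695 and 26094 within sums of 21774 and 26186. That sum is nearly all H3f3a, so it cannot show whether the single-gene difference holds.

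By annotated end, 23 of the 67 replication-dependent genes had a transcript that stops within 100 bases of the stem-loop, 22 had one that runs further, and 22 had no match. Calls were made for 1 of 23 tested genes (4.35%), 5 of 22 (22.7%) and 1 of 18 (5.56%) in these classes. Over all tested genes 36.1% were called, and 19.5% of those with a mean under 100. In that low range lay 16, 16 and 14 of the tested genes of these classes. The median log2 differences of the classes, in the same order, were 0.07, 0.14 and 0.01. The longer transcripts include Hist1h1c, which continues for 840 annotated bases past its stem-loop, Hist1h2ac with 2010 and Hist2h3c1 with 1167. Their difference from the other classes was not tested. By cluster, 6 of 51 tested genes (11.8%) were called in Hist1 on chromosome 13 and 1 of 9 (11.1%) in Hist2 on chromosome 3, beside the same 36.1%. In Hist3 on chromosome 11, 0 of 2 were called, and the single Hist4 gene on chromosome 6 was not called. At an unadjusted p under 0.05, for which no share over all genes was computed, limma gave 1 of the 2 Hist3 genes. This gene, Hist3h2a, was at 394 ± 58.7 against 321 ± 37.6 (limma adjusted p = 0.070). The 4 untested cluster genes were Hist2h2ab with a mean of 1.22 and the annotated pseudogenes Hist1h2aj, Hist1h2al and Hist3h2bb-ps with means of 5.13, 2.20 and 4.36.

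Genes that make and degrade histone mRNA moved in both directions. Of 36 listed genes, 33 were in the table and tested, 7 were called higher and 10 lower, or 51.5%, beside 43.1% of all tested genes with a mean of at least 100. The largest falls were Lsm11, a subunit of the U7 particle that cuts histone pre-mRNA (982 ± 116 against 1303 ± 71.3, log2 difference -0.41), Zfp473, a U7-associated zinc finger protein (171 ± 19.2 against 221 ± 22.5, -0.37), and Eri1, a nuclease that trims the stem-loop end (3637 ± 373 against 4652 ± 208, -0.36). The largest rises were Snrpe, Lsm4 and Snrpg, proteins of Sm and Sm-like rings with a general role in RNA processing (log2 differences 0.43, 0.39 and 0.36). Npat, added after its value was seen, fell from 2220.3 ± 97.4 in controls to 1861 ± 190.4 (log2 difference -0.26, limma adjusted p = 0.0134). Slbp, added likewise, was at 8778 ± 478 against 7981 ± 585 (log2 difference 0.14, limma adjusted p = 0.0779).

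A list of histone chaperones, which carry histones to DNA, also held Cenpa, the gene of the centromeric H3 variant itself. Of its 34 genes, 6 were called higher and 11 lower, in all 17, beside the same 43.1%. The largest falls were Cabin1, a subunit of the HIRA complex that deposits H3.3 (2520.5 ± 259 against 4127 ± 655, log2 difference -0.70), Srcap, the ATPase that loads H2A.Z (4314 ± 361 against 5820.4 ± 459, -0.43), and Hjurp, the chaperone of the centromeric H3 variant (12197 ± 1275 against 15755 ± 683, -0.37). The largest rises were Npm2, a nucleoplasmin that was near the minimum level (24.0 ± 8.48 against 12.6 ± 2.83, log2 difference 0.83), Ubn2, another HIRA complex subunit (3379.9 ± 703 against 2406 ± 177, 0.47), and Ipo4, an importin that carries histones H3 and H4 (3056 ± 346 against 2295 ± 67.0, 0.41). Of the other HIRA complex genes in the list, named after their values were seen, Hira fell (log2 difference -0.20, limma adjusted p = 0.0120) and Ubn1 did not pass (-0.09, limma adjusted p = 0.141).

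A pair of lists on the cell cycle were set beside the histone genes. Of 36 DNA replication genes, 5 were called higher and 11 lower, or 44.4%, close to that 43.1%, with a median log2 difference of -0.03. Mcm2, called lower, is in this list and in that of the histone chaperones. Mcm3, Mcm10 and Pold1 had the largest rises (log2 differences 0.42, 0.27 and 0.21), and Pola1, Prim2 and Mcm6 the largest falls (-0.52, -0.30 and -0.30). Mcm3 and Mcm6 are subunits of the same replicative helicase. Of 20 G2 and mitosis genes, 2 were called higher, Birc5 and Ube2c, and 9 lower, led by the checkpoint kinase gene Bub1b (-0.62), the cyclin gene Ccnb1 (-0.56) and the spindle motor gene Kif11 (-0.52), or 55.0% in all, with a median of -0.24. All genes named from these lists had a limma adjusted p under 0.05 unless a larger value is given.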

How the data were processed

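RNA sequencing of 10 leukemic spleens gave 1 deposited table with 1 column per sample and 0 columns outside the 10 samples. The authors deposited a normalised signal, gene counts scaled between samples by DESeq, as its name and the file headers state. Per the submitters' processing notes, kallisto 0.44.0, DESeq and the build mm10 were used; the annotation, the gene filter and the strand setting are not given in the sources used here. Samples were grouped by the genotype label. Low values were searched for steps of whole reads: depending on the sample, 64.7% to 74.0% of those below 8.5 reads fell no more than 0.1 reads from a whole number. That is too few to recover reads, so no count test was run and no counting intervals are given.

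The program limma 3.58.1 (R 4.3.3) was applied to log2(value + 1), with group as the only term and an intensity trend, for the 15276 genes with a mean of at least 10, and Benjamini-Hochberg adjustment over all of them. On simulated data with 15276 genes, 98 of the 100 simulated 2-fold changes and 80 of the 100 simulated 1.5-fold changes were found. Of 184 calls, 6 were false. The simulated counts were independent, their spread was assumed and not taken from these samples, and far fewer genes changed than were called here. Recovery was pooled over all expression levels, so it does not measure how many changes of low histone genes would be found. Where a single value lies outside the fit, it is described without a test.

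The members and gene lists were chosen with earlier results of these data known. Values in every sample were planned for cluster genes with a mean of at least 100 and an adjusted p under 0.05 (the 6 largest rises and falls), replacement genes with a mean of at least 100, and the most abundant cluster gene of each family, with means and SDs for at most 3 rises and 3 falls of each pathway list. Positions, stem-loops and 31-base runs (the usual length for kallisto, not stated for this study) came from GENCODE M21 transcripts on GRCm38, matched by symbol. A run and its reverse complement were counted as the same run. The 100-base limit past the stem-loop, the division at a mean of 100 and the sums over genes with shared runs were chosen after seeing the data. The alternatives changed the pseudocount (0.1, 5), the minimum mean (1, 50, none), the scaling (upper-quartile, quantile), the test (limma with no trend, limma with quality weights, exact rank-sum) and the threshold (adjusted p under 0.01), and included family sums without the most abundant member, and leaving out each sample.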

Additional observations from a re-analysis of the deposited data

Results flagged for a closer look

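In 4 of 50 sets of 5 samples examined (the named histone genes and family sums in each group), 1 sample lay far from the rest of its group by Dixon's test, where chance gives about 1 in 20. For H1f0, labelled Sirt1-deleted replicate 10 was the highest at 6766 normalised counts, with the others at 5554 to 5827. For Hist1h4i, control replicate 2 was the lowest at 703, with the others at 753 to 769. For Hist1h2ac, labelled Sirt1-deleted replicate 12 was the highest at 48.5, with the others at 32.5 to 33.5, and the gene kept its call in 1 of the 10 fits with a sample left out. For Hist2h3c1, control replicate 3 was the highest at 40.3, with the others at 10.6 to 17.0.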

How the results depend on the processing

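No paired analysis was possible because replicate numbers in the titles differ between the groups. An unadjusted p under 0.05 in limma gave 12 replication-dependent genes, with no share over all genes computed beside it. The 7 calls among replication-dependent genes became 4 with a minimum mean of 1, with no filter and under the exact rank-sum test. These calls became 2 with a minimum mean of 50, 4 under quantile normalization (1 higher and 3 lower), and 0 at an adjusted p under 0.01 in limma. With 1 sample left out they numbered 2 (without control replicate 2) to 8 (without labelled Sirt1-deleted replicate 10), all higher. They were 3 without labelled Sirt1-deleted replicate 7 or 12 or control replicate 3, and 4 without labelled Sirt1-deleted replicate 8 or control replicate 5 or 6. Their median difference, 0.08, became -0.11 under quantile normalization, 0.15 after upper-quartile rescaling (with 9 calls) and 0.06 to 0.13 with 1 sample left out. The 4 replacement calls became 7 after upper-quartile rescaling (5 higher, 2 lower), 2 under the rank-sum test and 3 to 4 with 1 sample left out, and their median of 0.05 became 0.13 after upper-quartile rescaling. Calls over all genes, 5518, became 3659 under the rank-sum test, 2850 at an adjusted p under 0.01, and 4207 to 6259 with 1 sample left out. Upper-quartile rescaling raised the median of all genes to 0.08 and the higher share of calls from 46.4% to 64.4%. Family sums moved by more than the replicate spread for H2B (0.15 after upper-quartile rescaling, -0.044 under quantile normalization) and H3 (-0.16 under quantile normalization). With 1 sample left out they ranged over 0.26 to 0.35 for H1, 0.04 to 0.10 for H2A, 0.04 to 0.10 for H2B, -0.05 to 0.02 for H3 and 0.17 to 0.27 for H4. Hist2h3c1 alone differed by 1.17. Its sum with 7 genes that share its runs, an alternative chosen after seeing the data, differed by -0.12, and Hist2h3c1 was a small part of that sum. The cause of these shifts was not tested. Raw depth is unknown, and most cluster genes lie at levels where the spread between samples is wide.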
